A study of Mus musculus with 3 samples.

Results

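The genes described here build and control the mitotic spindle and complete cell division. The list holds 45 genes, chosen by function, and a gene counts as measured through probe sets whose only gene symbol is its own. By this rule 44 of the 45 were found, out of 18194 genes named on the array, with 104 of the 34958 probe sets that carry a single symbol. Ccnb1, which encodes cyclin B1, had no such probe set and has no value here. RNA came from dental papillae of ICR mice at embryonic day 16 (E16), embryonic day 18 (E18) and postnatal day 3 (P3). The dental papilla is the mesenchyme inside the tooth germ that forms the odontoblasts and the pulp. Enzyme treatment freed the papillae from mandibular first molar germs, and each RNA sample pooled more than 20 of them. Every stage has 1 array, so every comparison is between single pooled samples, and nothing could be tested between stages.

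Entry into mitosis is driven by Cdk1 bound to A- and B-type cyclins, and the Polo and Aurora kinases then shape the centrosomes and spindle. Chromosomes attach to spindle microtubules through kinetochores, and the spindle checkpoint holds back anaphase until all are attached. The anaphase-promoting complex then marks securin and the cyclins for destruction, sister chromatids part, and the central spindle and contractile ring split the cell. Most of these genes are transcribed in dividing cells late in the cycle and are switched off in cells that have left it, which in the tooth includes odontoblasts once they mature.

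The deposited values are ratios, in which the 3 values of a probe set are divided by their own middle value, so that the middle array reads 1 for the brightest probe set of every member. They give the change between stages but no absolute level. Signals were recovered from the ratios as described under the processing, and 82, the median of all recovered signals, served as the floor for calling a gene measured. Where the lower array of a pair lay below this floor, the fold is a bound and is written "at least". Each gene is given by its brightest probe set unless other probe sets are named. At E16 and E18 all 44 genes reached the floor, and at P3 37 did, so no member was lost for a low signal and 7 have bounds at P3. A lower value can come from fewer dividing cells or from less of the RNA per cell, and these cannot be told apart in pooled tissue.

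Between E16 and P3 the mitotic genes were lower as a group and in each of their 8 functional classes. As deposited, all 44 had a negative log2 difference at P3 against E16, 32 of them at least 2-fold lower and 0 at least 2-fold higher. Over all 12193 genes measured in this comparison, 15.6% were at least 2-fold lower and 6.55% at least 2-fold higher. The median log2 difference of the members was -1.75, or 3.36-fold lower at P3, against -0.17 for all genes. Aurka, Rcc2 and the checkpoint gene Bub1b had the largest differences that were measured on both arrays, and Ndc80 and Nuf2 the smallest. At a 3-fold threshold 28 members were lower and 0 higher, where 5.43% of all genes were lower and 2.58% higher. The arrays were not rescaled here, and scaling matters for the whole array. With quantile normalization the median of all genes was 0.02 and 1291 genes were 2-fold or more lower and 1208 higher at P3, instead of 1908 lower and 799 higher. Under that scaling 31 of the 44 members were at least 2-fold lower, with a median of -1.50, and the log2 differences of Nuf2 (0.19) and Ndc80 (0.03) were above 0. Odontoblast markers summed to 25932 at P3, against 2654 at E16, and their part in the mitotic values was not tested.

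**Figure D1:**
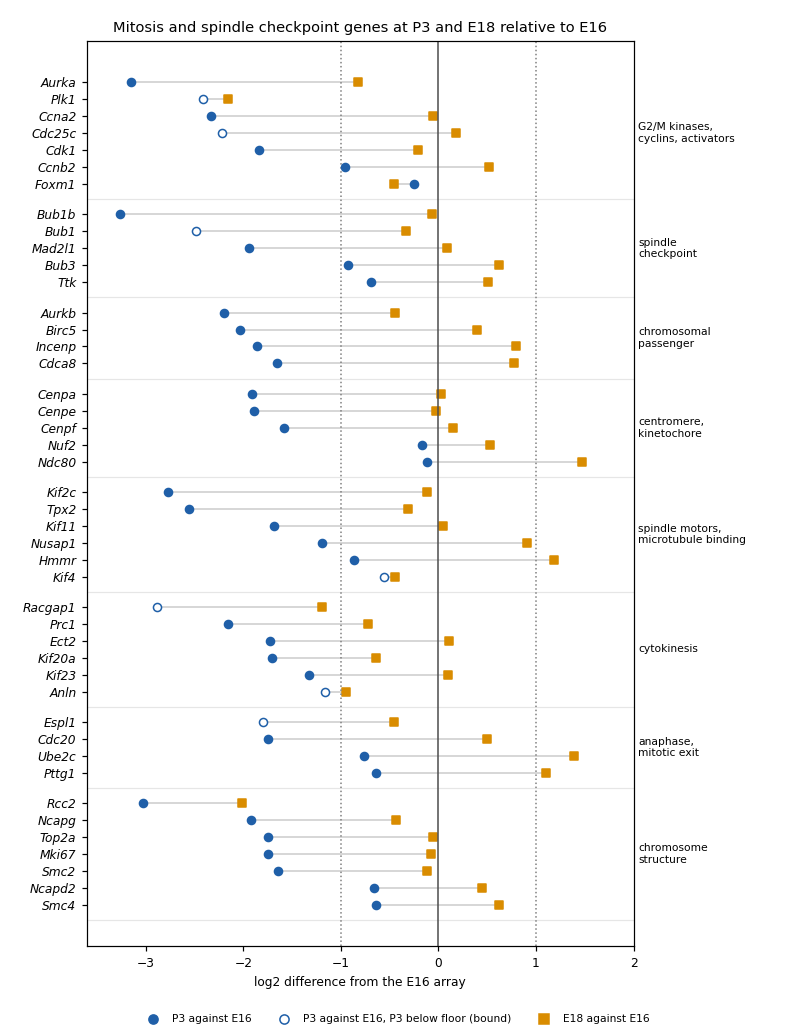
Log2 difference of each of the 44 genes from the E16 array, by functional class and ordered within it by the P3 value; blue circles are P3 and orange squares E18, open circles are bounds, and dotted lines mark 2-fold. On the deposited scale all P3 circles lie below 0, from -3.26 for Bub1b to -0.12 for Ndc80 (Ndc80 and Nuf2 were above 0 after quantile normalization), whereas the E18 squares lie on both sides of 0.

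Most promoter windows of the members hold sequence letters described for late cell cycle genes, the kind of gene listed here. Their high share among the members is therefore not an independent result. Late cell cycle genes are known to carry a cell cycle genes homology region (CHR), with the letters TTTGAA or TTCGAA, which is bound by the MuvB complexes that repress these genes in resting cells and activate them in dividing ones. Many also carry CCAAT boxes, which are bound by the NF-Y factor. Both were searched on both strands in RefSeq windows of build GRCm38.p6 that run from 250 bases before to 50 bases after a gene's start. Such a window was listed for 37 of the 45 genes, with 40 windows in all because 3 genes have 2 starts. The windows printed are those of the 3 members with the largest decrease at P3 against E16 and the 2 with the smallest, among members measured on both arrays. They read 5′ to 3′ along the gene in lower case, with CHR letters and CCAAT boxes of either strand in capitals. Bub1b is at chr2:118597961-118598260, plus strand. Aurka is at chr2:172370521-172370820, minus strand. Rcc2 is at chr4:140701223-140701522, plus strand. Ndc80 is at chr17:71526808-71527107, minus strand. Nuf2 is at chr1:169531415-169531714, minus strand.
Bub1b: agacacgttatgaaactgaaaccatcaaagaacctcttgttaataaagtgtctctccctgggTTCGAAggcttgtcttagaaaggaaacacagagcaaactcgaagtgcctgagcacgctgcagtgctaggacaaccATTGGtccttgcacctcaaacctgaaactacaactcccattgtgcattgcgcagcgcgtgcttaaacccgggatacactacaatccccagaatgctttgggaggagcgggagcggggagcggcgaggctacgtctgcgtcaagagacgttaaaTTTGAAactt
Aurka: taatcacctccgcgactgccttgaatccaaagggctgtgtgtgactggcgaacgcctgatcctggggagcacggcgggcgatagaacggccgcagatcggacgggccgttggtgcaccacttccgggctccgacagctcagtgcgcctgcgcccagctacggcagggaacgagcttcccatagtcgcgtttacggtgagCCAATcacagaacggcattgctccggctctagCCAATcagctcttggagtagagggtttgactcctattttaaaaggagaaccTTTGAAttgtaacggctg
Rcc2: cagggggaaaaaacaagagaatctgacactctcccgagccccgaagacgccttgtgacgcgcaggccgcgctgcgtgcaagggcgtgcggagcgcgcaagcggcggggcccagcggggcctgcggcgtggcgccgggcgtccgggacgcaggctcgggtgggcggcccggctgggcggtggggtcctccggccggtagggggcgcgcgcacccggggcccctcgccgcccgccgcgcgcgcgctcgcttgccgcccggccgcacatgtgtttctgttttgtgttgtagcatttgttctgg
Ndc80: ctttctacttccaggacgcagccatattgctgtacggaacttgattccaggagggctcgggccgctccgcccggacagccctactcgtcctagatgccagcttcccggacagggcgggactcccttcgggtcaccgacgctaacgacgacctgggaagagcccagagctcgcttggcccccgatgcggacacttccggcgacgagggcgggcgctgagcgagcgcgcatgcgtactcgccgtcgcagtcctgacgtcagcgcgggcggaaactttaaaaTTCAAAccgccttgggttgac
Nuf2: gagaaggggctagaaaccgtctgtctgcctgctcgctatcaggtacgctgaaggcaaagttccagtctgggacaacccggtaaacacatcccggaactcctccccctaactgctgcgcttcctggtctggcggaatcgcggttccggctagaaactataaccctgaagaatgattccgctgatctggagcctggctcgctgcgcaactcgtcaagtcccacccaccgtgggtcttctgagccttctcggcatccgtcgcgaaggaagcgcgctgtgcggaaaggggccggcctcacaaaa

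The Bub1b window holds TTTGAA starting at base 41 after the start, TTCGAA 188 bases before it and 1 CCAAT box on the reverse strand. The Aurka window holds TTTGAA at base 33 after the start and 2 CCAAT boxes ahead of it. In the Ndc80 window the CHR letters begin at base 30 after the start on the reverse strand, and there is no CCAAT. Neither the Rcc2 nor the Nuf2 window has any of these letters; Rcc2 was among the members with the largest differences and Nuf2 among those with the smallest.

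Of the 40 member windows, 32 (80.0%) held TTTGAA or TTCGAA, against 19.2% of all 32851 windows of the same length. TTTGAA alone was in 77.5% of member windows and 17.9% of all windows, and TTCGAA in 7.5% and 1.6%. CCAAT was in 77.5% of member windows and 37.4% of all, and 72.5% of member windows had both kinds of letters, against 7.5% of all. The CHR letters lay within 50 bases of the start in 28 member windows (70.0%), against 5.5% of all windows. A match is a run of letters and no evidence of binding. Members with and without each motif had these median differences, with no test of them. Among the 36 genes with a window and a value, the 29 with CHR letters had a median log2 difference of -1.73 at P3 against E16, with 21 at least 2-fold lower. The 7 without them had a median of -1.89, with 5 at least 2-fold lower. For CCAAT the order of the medians was the other way, -1.75 in the 27 genes with it, of which 20 were at least 2-fold lower, and -1.19 in the 9 without it, of which 6 were.

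**Figure D2:**
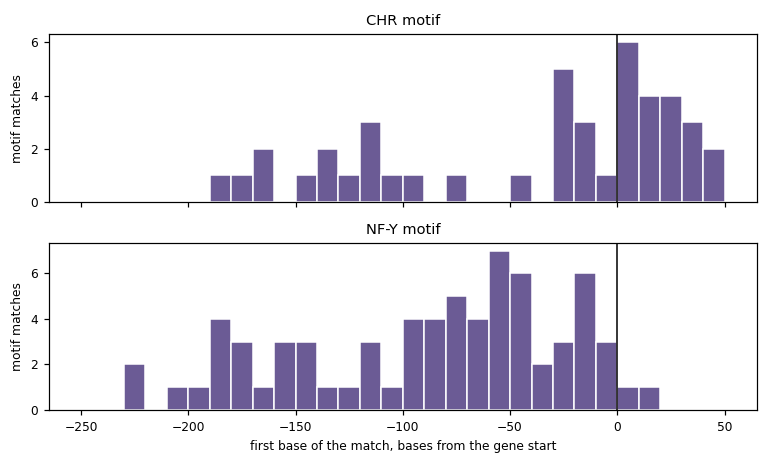
Number of motif matches in the 40 promoter windows of the members, in bins along the distance in bases from the gene start, for the CHR motif (top) and the NF-Y motif (bottom), both strands counted. CHR matches gather around the start and just after it, and NF-Y matches mostly lie before it.

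Among the kinases, cyclins and their activators, 5 of 7 genes were 2-fold or more lower at P3 against E16, with a median log2 difference of -2.22. The deposited values of Aurka, a centrosome and spindle kinase gene, were 1.77 at E16, 1 at E18 and 0.198 at P3. Aurka was lower at each later stage, and was 8.90-fold lower at P3 against E16. Plk1, the Polo kinase gene that acts from centrosome maturation to cytokinesis, read 4.47, 1 and 0.211 at the 3 stages. Plk1 was already 4.47-fold lower at E18 against E16, and at P3 its recovered signal of 20.6 was below the floor, so it was at least 5.33-fold lower than at E16.

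Ccna2, which encodes cyclin A2, read 1.04, 1 and 0.207 at E16, E18 and P3, and Cdk1 read 1.15, 1 and 0.322. Both were close at the 2 embryonic stages and low at P3, 5.03-fold and 3.58-fold lower than at E16. Cdc25c, a phosphatase gene whose product switches Cdk1 on, was at least 4.65-fold lower at P3 against E16 (values of 1, 1.13 and 0.113 at the 3 stages). Ccnb2, for cyclin B2, was under 2-fold at 1.95-fold lower, with values of 1, 1.44 and 0.514. Foxm1, a transcription factor of late cell cycle genes, stood out by its small difference. Its brightest probe set read 1.19, 0.865 and 1 at E16, E18 and P3, which is 1.19-fold lower at P3 against E16, and another measured probe set gave at least 1.80-fold lower.

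Of the 5 spindle checkpoint genes, 3 were 2-fold or more lower at P3 against E16 (median -1.94). Bub1b, which encodes the inhibitor of the anaphase-promoting complex BubR1, read 1.05, 1 and 0.11 at E16, E18 and P3. Its P3 value was 9.55-fold below E16, and 7.27-fold by a further probe set. The kinase gene Bub1 read 1.26, 1 and 0.167 and was at least 5.58-fold lower at P3, with a bound of 1.75-fold from its other probe set. Mad2l1, whose product is the diffusible inhibitor made at unattached kinetochores, read 1, 1.06 and 0.26 and was 3.85-fold lower.

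Ttk and Bub3 were the checkpoint genes under 2-fold at P3 against E16. Ttk, the kinase gene that starts checkpoint signalling, read 1, 1.42 and 0.619 at the 3 stages, or 1.62-fold lower at P3, and 2.73-fold lower by its second probe set. Bub3, which brings Bub1 and BubR1 to kinetochores, read 1, 1.54 and 0.524 by its brightest probe set and was 1.91-fold lower at P3. Its 3 other measured probe sets ranged from 2.57-fold lower to 1.06-fold higher at P3 against E16.

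The chromosomal passenger complex corrects faulty attachments and later directs cytokinesis, and all 4 of its genes were 2-fold or more lower at P3 against E16. By their brightest probe sets they spanned a narrow range, with log2 differences between -2.20 and -1.65 and a median of -1.94. Aurkb, the kinase gene of the complex, read 1.37, 1 and 0.297 at E16, E18 and P3 and was 4.61-fold lower at P3 against E16. Birc5 (survivin) read 1, 1.31 and 0.245 and was 4.08-fold lower. Incenp, the scaffold gene, read 1, 1.73 and 0.276, and Cdca8 (borealin) read 1, 1.71 and 0.318, which put them 3.62-fold and 3.15-fold lower. Other measured probe sets gave a wider range at P3 against E16. These were at least 5.92-fold lower for Aurkb, 2.37-fold and at least 3.71-fold for Incenp, and 2.45-fold for Cdca8. By the brightest probe sets the E16 array was the highest of the 3 for Aurkb, and the E18 array for the other 3 genes. The other measured Incenp probe sets were instead highest at E16, with E18 values 1.11-fold and 1.10-fold lower.

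The 5 centromere and kinetochore genes divided into Cenpa, Cenpe and Cenpf, all at least 2-fold lower at P3 against E16, and Ndc80 and Nuf2, which differed little. Cenpa, the histone H3 variant gene that marks centromeres, read 1, 1.02 and 0.266 at the 3 stages, and the kinetochore motor gene Cenpe read 1.02, 1 and 0.274. They were 3.75-fold and 3.71-fold lower at P3 against E16. A second Cenpa probe set was under the threshold at 1.23-fold lower, and at P3 against E18 it was 1.43-fold higher. Cenpf, a large kinetochore protein gene, was 2.98-fold lower, with values of 1, 1.11 and 0.335. The products of Ndc80 and Nuf2 pair within the complex that grips microtubules. Ndc80 read 1, 2.76 and 0.923 at E16, E18 and P3, and Nuf2 read 1, 1.45 and 0.888. At P3 they were 1.08-fold and 1.13-fold lower than at E16, but both were lower at P3 against E18, Ndc80 by 2.99-fold and Nuf2 by 1.63-fold. Each of them has a single probe set, so no second reading is at hand.

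Among spindle motors and microtubule-binding proteins, 4 of 6 genes were 2-fold or more lower at P3 against E16 (median -1.44). Kif2c, a motor gene whose product shortens microtubules at centromeres, read 1.09, 1 and 0.16 at the 3 stages and was 6.82-fold lower at P3. Tpx2, which activates Aurora A and nucleates microtubules, read 1.24, 1 and 0.21 and was 5.89-fold lower. Other probe sets gave smaller differences, from at least 2.24-fold lower to 1.13-fold higher for Kif2c and from 2.72-fold to 1.25-fold lower for Tpx2.

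Kif11, whose motor pushes spindle poles apart, read 1, 1.04 and 0.312 at E16, E18 and P3 and was 3.21-fold lower at P3 against E16, although 1 of its 3 probe sets was 1.16-fold higher. Nusap1, a microtubule bundling protein gene, read 1, 1.87 and 0.437 and was 2.29-fold lower. Hmmr, for a hyaluronan receptor that also binds spindle microtubules, was 1.83-fold lower at P3 (values of 1, 2.26 and 0.546). Its other measured probe sets gave at least 2.68-fold lower and 1.03-fold higher. Kif4, a chromosome-bound motor gene, was at least 1.48-fold lower, a weak bound because its P3 signal of 38.3 was below the floor.

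All 6 cytokinesis genes were 2-fold or more lower at P3 against E16, with a median of -1.72. Racgap1, which with the motor gene Kif23 encodes the centralspindlin complex, read 2.28, 1 and 0.262 at E16, E18 and P3 and was at least 7.36-fold lower at P3, against 2.17-fold by its other measured probe set. Prc1, which bundles microtubules of the central spindle, read 1.65, 1 and 0.369 and was 4.47-fold lower, or 6.81-fold by its other probe set. By their brightest probe sets both were lower at each later stage. Ect2, the activator of the small GTPase RhoA in the contractile ring, read 1, 1.08 and 0.301 and was 3.32-fold lower. Kif20a was 3.27-fold lower (values of 1.56, 1 and 0.475), Kif23 was 2.52-fold lower (1, 1.07 and 0.397), and the ring scaffold gene Anln at least 2.23-fold (1.93, 1 and 0.629).

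Of the 4 genes of anaphase and mitotic exit, 2 were 2-fold or more lower at P3 against E16 (median -1.25). Cdc20, the activator of the anaphase-promoting complex, read 1, 1.42 and 0.298 at the 3 stages and was 3.35-fold lower at P3 (3.44-fold by a second probe set). Espl1, which encodes the cohesin-cutting protease separase, read 1.37, 1 and 0.385 and was at least 3.47-fold lower. Ube2c, the ubiquitin-conjugating enzyme gene of that complex, read 1, 2.61 and 0.589, and the securin gene Pttg1 read 1, 2.14 and 0.64. At P3 they were 1.70-fold and 1.56-fold lower than at E16, and both peaked at E18.

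Among genes of chromosome structure, 5 of 7 were 2-fold or more lower at P3 against E16 (median -1.75). Rcc2, a chromosome passenger and small GTPase regulator gene, read 4.03, 1 and 0.492 at E16, E18 and P3 and was 8.19-fold lower at P3. Mki67, the source of the Ki-67 antigen of dividing cells, read 1.05, 1 and 0.314, and Top2a, which untangles sister DNA, read 1.05, 1 and 0.311. Both were 3.36-fold lower at P3. Among the condensin subunits, Ncapg was 3.78-fold and Smc2 3.12-fold lower by their brightest probe sets, whereas Ncapd2 (1.58-fold) and Smc4 (1.56-fold) stayed under 2-fold. A second Ncapd2 probe set gave 5.79-fold lower and 1 of the 2 other Smc4 probe sets 3.26-fold lower.

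**Figure D3:**
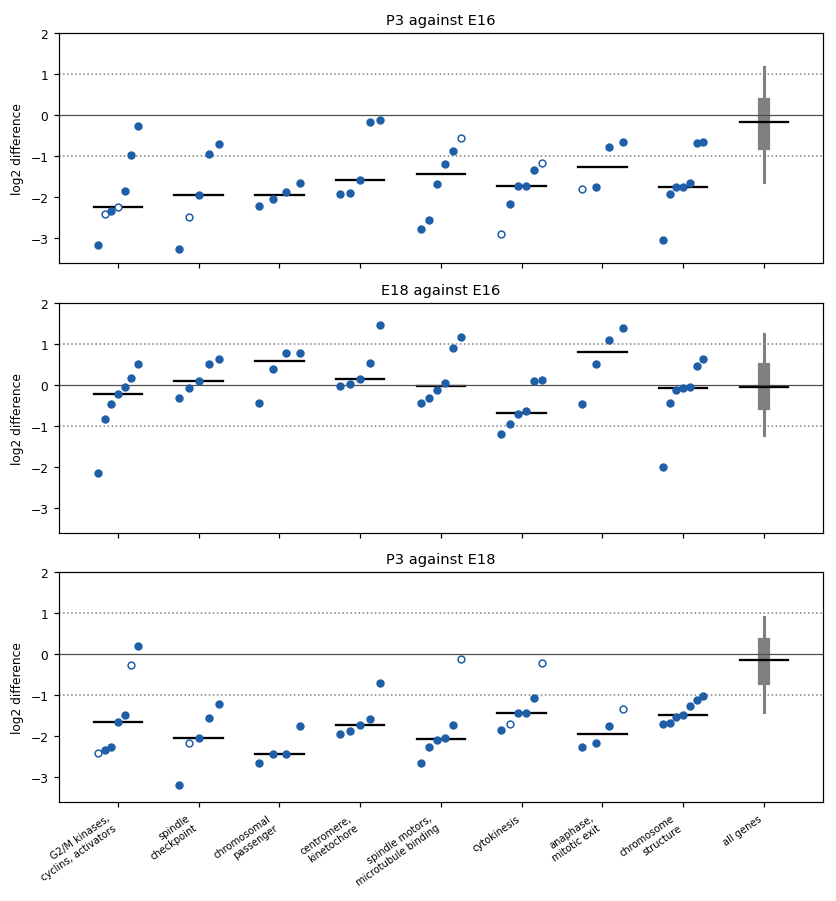
Log2 differences of the members by functional class in the 3 comparisons of stages, with a black line at each class median and open circles for bounds; the grey bar at the right shows all genes, the thick part from the 25th to the 75th percentile and the thin part from the 5th to the 95th. Class medians lie between -2.22 and -1.25 for P3 against E16 and between -0.68 and 0.80 for E18 against E16.

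From E16 to E18 the mitotic genes did not move together. Their median log2 difference was 0, with 22 of 44 below 0, 3 at least 2-fold lower and 4 at least 2-fold higher. Over all 12032 genes measured in this comparison, 8.14% were at least 2-fold lower and 8.10% at least 2-fold higher, so the members' shares are near the background. At 3-fold the counts were 2 lower and 0 higher, against 2.0% and 2.39% of all genes. The lower genes were Plk1 (4.47-fold), Rcc2 (4.03-fold) and Racgap1 (2.28-fold). The higher genes were Ndc80 (2.76-fold), Ube2c (2.61-fold), Hmmr (2.26-fold) and Pttg1 (2.14-fold). By class, cytokinesis genes had the lowest median, -0.68, and genes of anaphase and mitotic exit the highest, 0.80. The chromosomal passenger genes had a median of 0.58, while the medians of the other 5 classes lay between -0.21 and 0.15. Over the alternative settings given below, the anaphase median ranged from -0.19 to 0.84 and the passenger median from 0.13 to 0.62. Epithelial markers also differed between these arrays, with a summed signal of 24540 at E18, against 8110 at E16, and their part in the mitotic values was not tested.

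Probe sets of a gene often differed in sign for E18. Of 28 members with at least 2 measured probe sets, 17 had values of both signs for E18 against E16, and the median range within a gene was 0.77 on the log2 scale. The range was no smaller for P3 against E16 (0.84 over 27 members), where 4 genes had both signs. In 1 gene, Pttg1, probe sets passed 2-fold in opposite directions. It was 2.14-fold higher by its brightest probe set, 1.26-fold higher by another and 3.08-fold lower by the third. Without probe sets whose names end in _s_at, _x_at or _a_at, which mark probes shared by several transcripts or without unique sequence, Pttg1 was 3.08-fold lower and Hmmr had a log2 difference of -0.55. For Rcc2 both probe sets were lower, 4.03-fold and 2.76-fold, whereas the second Racgap1 probe set was 1.01-fold higher. Plk1, Ndc80 and Ube2c have 1 probe set each. Control probe sets for actin and Gapdh also differed between the arrays. Actin probe sets had a 3′ to 5′ signal ratio that at E18 was 3.87 times its E16 value, and for Gapdh it was 1.42 times. At P3 these ratios were 2.46 times (actin) and 0.355 times (Gapdh) their E16 values. The part of these differences in the mitotic values was not tested.

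**Figure D4:**
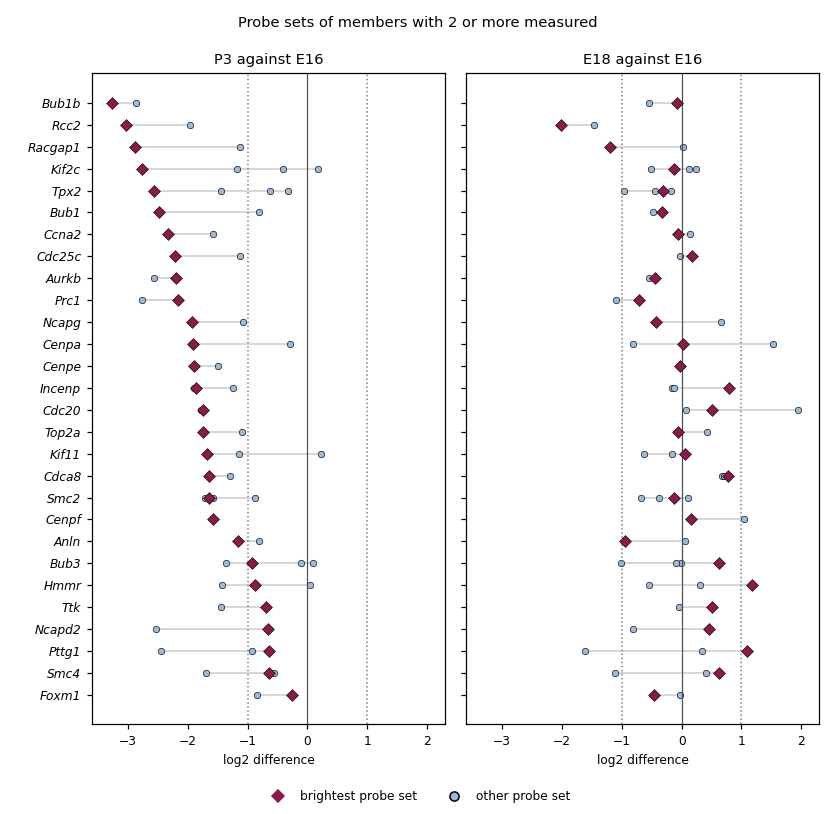
Log2 differences of every measured probe set of the 28 members with at least 2 measured, for P3 against E16 (left) and E18 against E16 (right); diamonds mark the brightest probe set, circles the others, and dotted lines 2-fold. On the left nearly all points lie below 0, and on the right 17 genes have points on both sides of 0.

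From E18 to P3 most of the mitotic genes were again lower. All but Foxm1 of the 44 genes had a negative log2 difference, 39 were 2-fold or more lower and 0 higher, with a median of -1.71 (3.27-fold lower at P3). Over all 12119 genes measured, 11.7% were at least 2-fold lower and 4.05% at least 2-fold higher, with a median of -0.15. At 3-fold 26 members were lower and 0 higher, against 3.32% and 1.27% of all genes. Under quantile normalization 864 genes were lower and 787 higher, instead of 1416 and 491, and 36 members were 2-fold or more lower. Epithelial markers were lower between the same arrays, with a median log2 difference of -1.64, 11 of 15 at least 2-fold lower and a summed signal of 10589 at P3, against 24540 at E18. The 3′ to 5′ ratio of Gapdh was 0.25 times and that of actin 0.634 times its E18 value at P3, and hybridisation controls were 0.451 times theirs. The part of these differences in the mitotic values was not tested. The comparison shares its P3 array with that of P3 against E16, so the 2 are not independent. The 5 genes under 2-fold were Foxm1 (1.16-fold higher at P3), Nuf2, and 3 genes with bounds, Plk1 (at least 1.19-fold lower), Anln (at least 1.16-fold) and Kif4 (at least 1.09-fold).

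Class medians at this step lay between -1.43 for cytokinesis and -2.42 for the chromosomal passenger complex, but they depended on the probe sets used. Without the shared probe sets these medians were -0.82 and -0.89, but few genes of these classes were then left. Cytokinesis kept only Kif23 (2.69-fold lower) and Anln (at least 1.16-fold). The passenger complex kept only Incenp (2.17-fold) and Cdca8 (at least 1.59-fold). With the median of a gene's probe sets, the median of spindle motors was -0.55 instead of -2.07. By the brightest probe sets, all members of the spindle checkpoint, chromosomal passenger, anaphase and chromosome structure classes were 2-fold or more lower at P3 against E18. Bub1b was 9.11-fold lower, Incenp 6.28-fold, Kif2c 6.27-fold and Birc5 5.37-fold. Other probe sets gave less for Bub1b (4.95-fold), for Incenp (2.17-fold and at least 3.33-fold) and for Kif2c (1.04-fold, 1.45-fold and at least 1.56-fold). Genes highest at E18 by their brightest probe sets were also lower at P3 against E18, Ube2c by 4.44-fold, Hmmr by 4.14-fold and Pttg1 by 3.34-fold. Other probe sets gave 1.20-fold and at least 1.83-fold for Hmmr, and 2.41-fold and at least 1.76-fold for Pttg1. By their brightest probe sets 22 of the 44 genes were highest at E16 and 22 at E18, 0 were highest at P3, and 43 were lowest at P3; over all 12539 genes measured at any stage, 44.4% were lowest at P3. By their brightest probe sets, with values below 82 set to that floor, Rcc2 and Racgap1 were 2-fold or more lower at both steps, as were 0.405% of the 11612 genes measured at both. Other probe sets did not show this for both steps. Another Racgap1 probe set was 1.01-fold higher at E18 against E16 and another Rcc2 probe set gave only a bound of at least 1.41-fold lower at P3 against E18. Plk1 was 4.47-fold lower at the first step, and at the second the floor limits it to a bound of 1.19-fold, although its deposited value was 0.211 at P3, against 1 at E18.

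Probe sets of the same gene are the sole look at measurement error in these data, and they miss any error shared by a whole array. Over 5073 genes with several measured probe sets, the standard deviation between probe sets of a gene was 0.63 on the log2 scale for P3 against E16, and it was 0.786 over the 27 such members. Of 84 measured member probe sets, 57 were 2-fold or more lower at P3 against E16 and 0 at least 2-fold higher. In 13 of the 27 members all measured probe sets were at least 2-fold lower, and in 4 (Bub3, Hmmr, Kif11 and Kif2c) the signs were mixed, with no increase above 1.16-fold. For P3 against E18, 59 of 87 probe sets were at least 2-fold lower and 0 at least 2-fold higher. All measured probe sets were at least 2-fold lower in 14 of 28 members, and signs were mixed in 5 (Bub3, Cenpa, Foxm1, Kif11 and Tpx2).

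Most other cell cycle genes, listed by function, were lower at P3 too, while several inhibitors of the cycle were higher. Of 51 measured mitotic genes outside the list, 32 were 2-fold or more lower at P3 against E16 and 0 higher (median -1.29). They included the centrosome kinase gene Nek2 (6.84-fold, but between 2.15-fold lower and 1.03-fold higher by 2 other probe sets), the centromere gene Cenpn (6.54-fold, and 3.68-fold by another), the cohesion protector gene Cdca5 (6.19-fold, and 2.33-fold by another probe set) and Spc24 (5.82-fold), a partner of Ndc80 and Nuf2. Zwilch, a kinetochore gene of the checkpoint, was 5.32-fold lower, and Fbxo5, an inhibitor of the anaphase-promoting complex, 5.02-fold. Of 33 DNA replication genes, 27 were lower and 0 higher (median -1.65). The helicase subunit gene Mcm7 was 16.9-fold lower (3.26-fold to 6.45-fold by 3 other probe sets) and Mcm3 6.76-fold (2.81-fold to 6.46-fold by 3 others). Cdc6, which loads that helicase, was at least 8.52-fold lower, the thymidine kinase gene Tk1 7.76-fold, the primase gene Prim1 7.59-fold, the ribonucleotide reductase gene Rrm2 7.26-fold (2.52-fold and 1.81-fold by others) and the sliding clamp gene Pcna 2.43-fold.

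Of 9 G1 cyclin and kinase genes, 6 were 2-fold or more lower at P3 against E16 and 0 higher by their brightest probe sets (median -1.17). Ccne1 (cyclin E1) was 5.19-fold lower (1.28-fold by another probe set), Cdk6 3.23-fold (1.72-fold by another) and Cdk4 2.84-fold (4.10-fold to 5.24-fold by 2 others). Ccne2 was 2.47-fold lower, Cdc25a 2.26-fold and Cdk2 2.06-fold. Ccnd1 (cyclin D1), which answers growth signals, read 0.558 at E16, 2.63 at E18 and 1 at P3, and was 4.71-fold higher at E18 against E16. At P3 against E16 Ccnd1 was 1.79-fold higher, and 2.64-fold and 2.83-fold higher by 2 other probe sets. The inhibitors had 3 of 6 genes at least 2-fold higher at P3 against E16 and 1 lower (median 0.71). Cdkn1a (p21) read 0.152, 1 and 1.52 at E16, E18 and P3 and was 6.57-fold higher at E18 against E16, with a log2 difference of 3.32 at P3 against E16. Cdkn1b (p27) read 0.431, 1 and 1.06 and Cdkn1c (p57) read 0.801, 1 and 1.93, which made them 2.46-fold and 2.40-fold higher at P3. Cdkn2c (p18) was 2.61-fold lower, and Cdkn2d (1.11-fold higher) and Cdkn2a (1.02-fold lower) differed little.

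Transcription regulators of the cycle had 10 of 19 measured genes at least 2-fold lower at P3 against E16 and 1 higher (median -1.07). E2f1, an activator of replication genes, was at least 6.64-fold lower (at least 4.18-fold by another probe set), and E2f2 at least 2.73-fold. The repressors E2f7 and E2f8 were 4.51-fold and 2.57-fold lower. Nfyb, a subunit of the CCAAT-binding NF-Y factor, was 2.63-fold lower, 1.64-fold by another probe set. The retinoblastoma gene Rb1, which restrains E2F factors, read 0.439, 1 and 1.07 at the 3 stages and was 2.45-fold higher at P3.

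**Figure D5:**
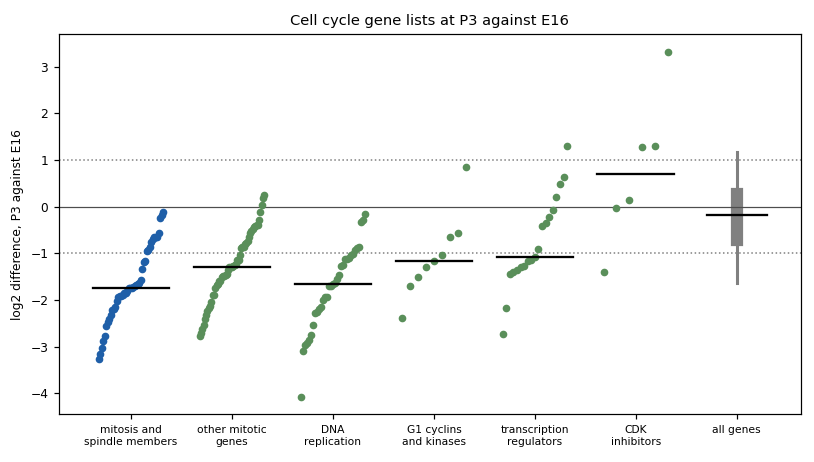
Log2 differences at P3 against E16 of the 44 members (blue) and of the other cell cycle lists (green), sorted within each list, with black lines at the medians and dotted lines at 2-fold; the grey bar shows all genes, from the 25th to the 75th percentile (thick) and the 5th to the 95th (thin). Medians run from -1.75 for the members to 0.71 for the inhibitors of cyclin-dependent kinases, against -0.17 for all genes.

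Markers of the tissue and of other cell types also differed between the arrays, and the part of these lists in the mitotic values was likewise not tested. All 10 dental mesenchyme markers were at or above the floor on each array, and the summed recovered signal of the list was 11844 at E16, 7015 at E18 and 6614 at P3. Such sums rest on recovered signals, which may understate the level, so they are rough and do not rank genes. Of the 10 markers, 7 were at least 2-fold lower at P3 against E16 and 2 higher (median -1.53). Prrx1 was 2.84-fold lower, Dlx2 3.37-fold higher and Msx1 1.80-fold higher. Odontoblast markers summed to 2654, 10194 and 25932 at the 3 stages, with 5 of 7 at least 2-fold higher at P3 against E16 and 1 lower. Dmp1 was at least 9.54-fold higher at P3 against E16 but 4.75-fold lower at P3 against E18. Dspp, which encodes the main dentin matrix protein precursor, was at least 214-fold higher and made up 17579 of the P3 sum. Of 14 epithelial markers measured at E18 and E16, 11 were 2-fold or more higher at E18 and 0 lower, among them Dsp (3.63-fold), Dsg2 (5.75-fold) and Krt5 (2.33-fold), and of 15 at P3 against E18, 11 were lower and 2 higher. Their sums were 8110 at E16, 24540 at E18 and 10589 at P3, so this list was highest on the E18 array.

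Macrophage and leukocyte markers summed to 3361, 6526 and 10142 at E16, E18 and P3, with 7 of 14 at least 2-fold higher at P3 against E16 and 0 lower, among them Mrc1 (19.3-fold). Endothelial markers summed to 4666, 2233 and 2652, with 1 of 8 at least 2-fold lower at P3 against E16. Erythroid markers summed to 1924, 521 and 444, and 3 of 5 were 2-fold or more lower at P3 against E16, Hbb-y and Slc4a1 with bounds (at least 8.23-fold and at least 2.07-fold) and Alas2 6.60-fold. Cartilage markers summed to 3048, 2662 and 4370, mural cell markers to 5492, 5794 and 6771, and Schwann cell and neuron markers to 569, 505 and 418. Controls added at hybridisation, 18 probe sets, had a median of 2.17 times their E16 value at E18 and 1.04 times at P3.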

How the data were processed

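RNA of pooled dental papillae was hybridised to 3 single-colour oligonucleotide arrays, 1 each at E16, E18 and P3, after 2-cycle biotin labelling per the labels' protocols. The submitters' processing notes name GCOS with no version. For 45101 probe sets the authors deposited ratios, by their values centred on the middle array, which read 1 in 90.4%. Of the values of the remaining 4347 probe sets, 99.98% were within 0.01 of whole multiples of 1 step per array. The steps gave factors of 0.7177 (E16) and 1.0802 (E18) relative to P3. Scaling and genome build: not given in the sources used here.

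Signals were recovered as the smallest number of steps that made all 3 values whole (relative tolerance 3e-07). A recovered signal is never above the true one but may understate it, and above 5000 steps it may be a chance solution; 12 of the 44 members lie within that limit. The deposited ratios between stages do not depend on it. Which genes count as measured, the bounds and the choice of the brightest probe set do, because they use the recovered signals. The floor was the pooled median, 82; bacterial control probe sets (81 values) had a maximum of 70.2. Log2 differences were taken after setting lower values to the floor, and a gene entered a comparison when 1 of its 2 arrays was at or above the floor. The brightest probe set with 1 symbol stood for a gene. The design had assumed signals, not ratios.

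Gene symbols came from the platform annotation (34958 probe sets with 1 symbol, 932 with several, and 9160 not listed apart from controls). A threshold of 2-fold describes single arrays, whose number limits the precision. The members, the lists and the motifs were chosen with earlier results of these data known; the count of CHR letters near the start was added later. Named genes outside the members are the 6 with the largest difference at P3 against E16 in each cell cycle list, plus Pcna, Ccnd1 and Cdkn1c, and the 3 with the highest mean recovered signal in each marker list, of which only some are printed. Alternatives covered scaling, floor, probe sets and threshold. Scripts ran in Python 3.11.15 with numpy 2.4.6 and pandas 2.3.3 and were tested on simulated arrays.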

Additional observations from a re-analysis of the deposited data

How the results depend on the processing

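Counts of members and class medians were recomputed with each array divided by its median signal, after quantile normalization, with the floor at 25.6 or none, with the median of a gene's probe sets, without probe sets ending in _s_at, _x_at or _a_at, with a 3-fold threshold, and, chosen after seeing the data, with the median of all genes set to 0. At P3 against E16 the count of lower members ranged from 24 (of 33 measured, without the shared probe sets) to 33 and the members' median from -1.75 to -1.50. At P3 against E18 the ranges were 26 to 41 and -1.74 to -1.43. A count of 26 was that of the 3-fold threshold, and 35 members were measured at this step without the shared probe sets. At E18 against E16 the median stayed between -0.06 and 0.04. The count of members at least 2-fold higher at E18, 4, became 2 with the median of probe sets and 0 at 3-fold. Without a floor, the median of kinases and cyclins at P3 against E18 was -2.25. With the median of probe sets, the medians at P3 against E18 were -1.30 for the spindle checkpoint and -0.55 for spindle motors. Without shared probe sets, the chromosomal passenger value of -1.25 at P3 against E16 was that of Incenp alone. At P3 against E18 the passenger median of -0.89 came from Incenp and Cdca8 only. At that step cytokinesis had -0.82, from Kif23 and Anln only, and spindle motors had -1.30. Under the same restriction the E18 against E16 medians were 0.81 for centromere and kinetochore genes and -0.19 for anaphase genes, and Hmmr (-0.55) and Pttg1 (-1.62) turned from higher to lower at E18. The cause of these shifts was not tested, beyond the change of probe sets itself. At P3 against E16, where neither passed 2-fold, Ndc80 and Nuf2 were above 0 under quantile normalization, and Ndc80 also with the median of all genes set to 0. The remaining values for single genes kept their direction where they were past 2-fold. No paired analysis was possible because each stage has 1 array.

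Each value rests on 1 pooled sample, and low signal limits 7 members at P3 to bounds.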
